A study of Drosophila melanogaster with 6 samples.

Results

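The acid and neutral lipases of Drosophila melanogaster described here are 33 genes, 19 of the acid lipase family, to which the gut lipase gene mag belongs, and 14 of the neutral, pancreatic lipase-like family. They were taken by gene name from the probe annotation of the array, and 32 of them had a probe set of their own among the 11982 genes that had 1. Messenger RNA was measured on 6 oligonucleotide arrays in whole, yeast-fed larvae early in the third instar. The 3 gain samples came from a line with a P-element transgene in which a heat-shock promoter drives a full-length cDNA of DHR96, a nuclear receptor encoded by Hr96, and the 3 control samples came from w1118, the host strain, with no transgene. Larvae were heated for 1 h at 37.5 °C beginning 3 h after the moult to the third instar, and RNA was taken 4 h later. A heat-shock promoter acts in most tissues, 1 transgenic line is described, and transgenic larvae without heat were not analysed here, so the transgene and any other difference between the line and its host cannot be told apart. Whether replicates are separate cultures is not in the labels, so the p-values measure only the spread between these samples.

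Lipases cut fatty acids from triacylglycerols, sterol esters and phospholipids. In insects the secreted enzymes of the midgut digest dietary fat, while others act within cells on stored or membrane lipid. Acid lipases are relatives of the mammalian gastric and lysosomal acid lipases, and neutral lipases are relatives of mammalian pancreatic lipase. DHR96 is a nuclear receptor that binds sterols, and in adult flies mag, whose product works on triacylglycerol and cholesterol esters, is a known gene under its control. The comparison asks which of these transcripts differed when DHR96 was in excess.

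Array intensities, deposited on a linear scale, are given here as log2. Hr96 itself lay at 14.73, 14.71 and 14.64 in gain larvae, against 9.47, 9.82 and 9.50 in control larvae, so every library matched its label. A gene was tested when its log2 value was at least 4 on at least 3 of the 6 arrays, a level that 44.5% to 44.7% of probe sets reached on gain arrays and 44.8% to 45.0% on control arrays. Of 7974 tests, 277 were lower in gain at an adjusted p under 0.05 (3.47% of tests) and 36 higher (0.451%), a split that became 252 and 204 with median centring of the arrays, 349 and 129 with median difference centring and 282 and 171 with quantile normalization. Calls lower and higher numbered 27 and 12 without control 1, 45 and 14 without control 2 and 116 and 19 without gain 1. The median difference over all tests was -0.15 on the log2 scale, and 75.0% of tests had a negative one. In 6353 of the 7974 tests gain 2 had the lowest of the gain values. Controls 1 and 2 correlated at 0.9991 and each of them with control 3 at 0.9965 and 0.9957 (Pearson, log2, all probe sets), so the controls were not equally far apart.

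Of the 33 lipases, 17 were tested, 15 stayed below the level needed and CG6277 was read only by a probe set that also reads CG6271. In gain larvae 2 neutral lipases were called lower and none of the 17 higher, against 3.47% and 0.451% of all tests. CG10163, a lipase family gene outside these 33, was called higher and is described further on. CG5162 was 1.44 lower on the log2 scale, and CG5966, whose gain arrays all lay below the level needed, was at least 2.22-fold lower. The transcript of mag did not pass the test, at 13.13 ± 0.03 in gain and 13.19 ± 0.27 in control (SD, n = 3 each). Several acid lipases with lower means in gain, with CG8093 and CG2772 at their head, did not pass either. Among the 17 tested lipases 16 had a negative difference, against 75.0% of all tests, and their median was -0.49, against -0.15. These 17 are those bright enough to be tested and are not all of the lipases. CG5966 entered the test through its controls alone, so it adds no support to the counts or the median given here.

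**Figure D1:**
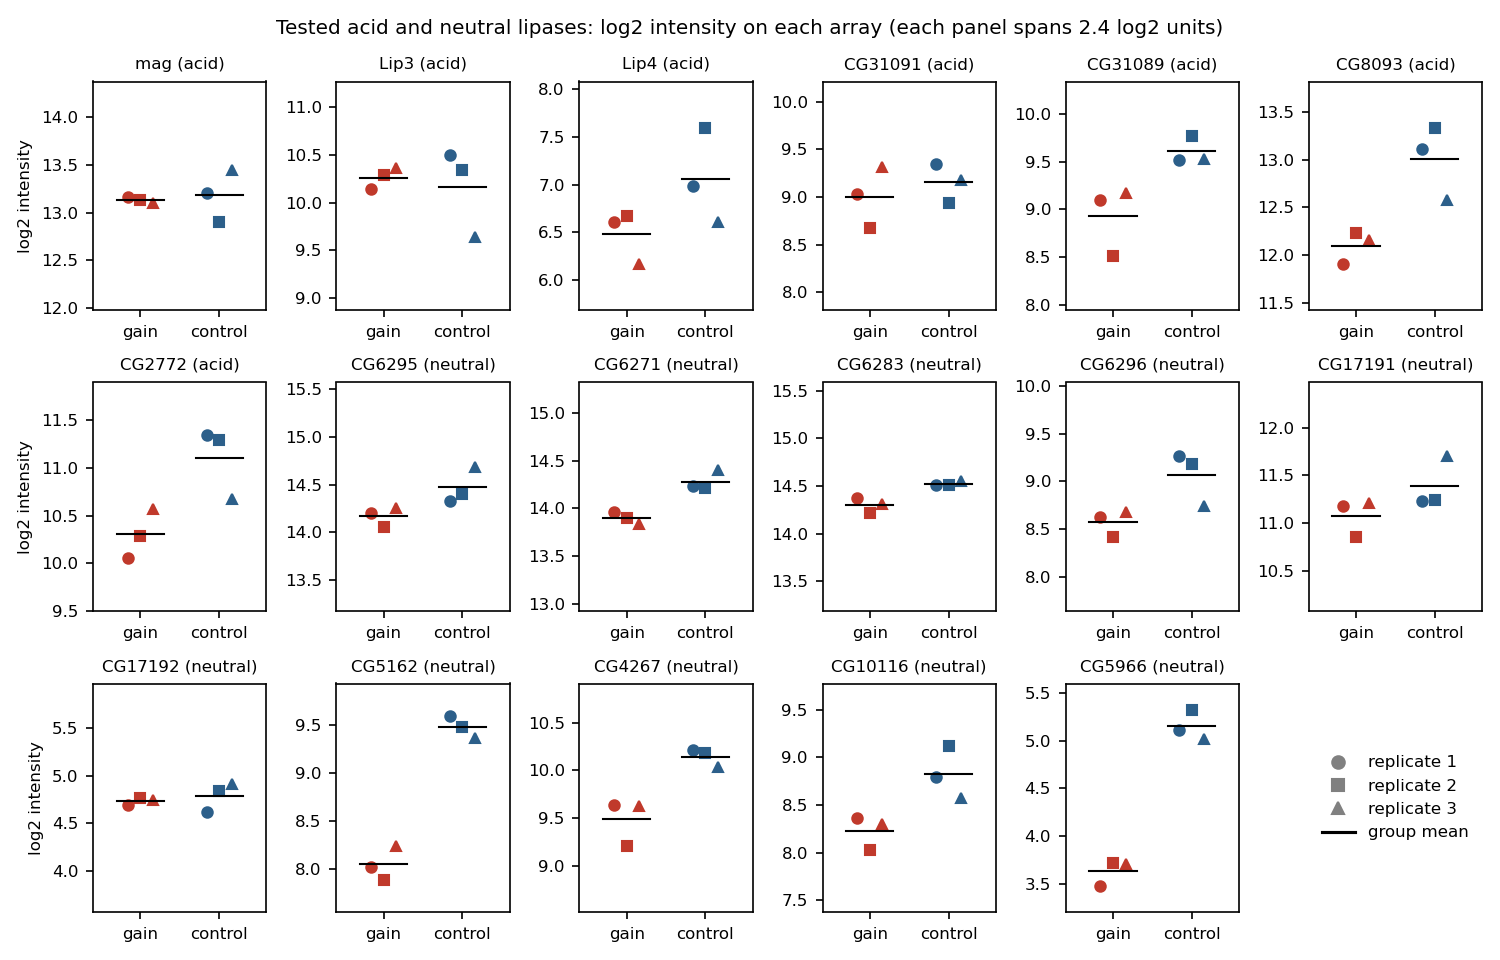
Log2 intensity of the 17 tested lipases on each array, with gain left of control in every panel, 1 symbol for each replicate and a line at the group mean. CG5162 and CG5966 have the widest gaps, while the gain values of mag lie within the span of its control values.

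Among the acid lipases, mag was taken up first because of its known link to DHR96. Its log2 values were 13.16, 13.13 and 13.10 in gain larvae, against 13.21, 12.90 and 13.45 in control larvae. All 3 gain values lay between the lowest and the highest control value, and the spread of the controls exceeded the difference of -0.05 ± 0.15 (SE, n = 3 per group, limma adjusted p = 0.872). The 95% confidence interval of that difference ran from -0.42 to 0.31, that is, from 1.34-fold lower to 1.24-fold higher in gain. Its sign turned with the scaling of the arrays, to 0.20 with median centring, 0.09 with median difference centring and 0.02 with quantile normalization.

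CG8093, a relative of mag, had the largest difference of the acid lipases. It lay at 11.91, 12.23 and 12.16 in gain larvae, against 13.11, 13.33 and 12.58 in control larvae. The groups did not overlap, and control 3 was the control nearest to gain. The difference was -0.90 ± 0.21 (SE, n = 3 per group) and did not pass (limma adjusted p = 0.0728), with a confidence interval from -1.41 to -0.40. Without control 3 it was -1.12 and passed (adjusted p = 0.0205). It did not pass without control 1 (adjusted p = 0.254) or control 2 (adjusted p = 0.212). Nor did it pass with any single gain array left out or under the 3 other scalings.

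CG2772, another acid lipase, showed a like arrangement of arrays. Its values were 10.05, 10.29 and 10.57 in gain larvae, against 11.34, 11.29 and 10.67 in control larvae. The groups were apart by 0.09 at their nearest arrays, gain 3 and control 3. The difference of -0.79 ± 0.23 (SE, n = 3 per group) did not pass (limma adjusted p = 0.115). Without control 3 it was -1.01 and passed (adjusted p = 0.0364). As with CG8093, it did not pass without control 1 (adjusted p = 0.354), control 2 (adjusted p = 0.327) or any single gain array. It did not pass under the 3 other scalings either.

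CG31091 and CG31089 are neighbours in the genome with no coding gene between them, and their differences were unlike in size. CG31089 lay at 9.10, 8.51 and 9.17 in gain larvae, against 9.52, 9.77 and 9.53 in control larvae, a difference of -0.68 ± 0.20 (SE, n = 3 per group, limma adjusted p = 0.121). All its gain arrays were below all its control arrays. CG31091 lay at 9.03, 8.67 and 9.31 in gain larvae, against 9.35, 8.94 and 9.18 in control larvae, and there the groups overlapped (difference -0.16 ± 0.19, adjusted p = 0.689). Neither passed, and whether the 2 differ from each other was not tested.

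Lip3 and Lip4 are acid lipases known to be induced by fasting, Lip4 as a target of the transcription factor FOXO. Among the 17 tested acid and neutral lipases only Lip3 had a higher mean in gain. Its values were 10.14, 10.29 and 10.36 in gain larvae, against 10.50, 10.34 and 9.64 in control larvae. The low value of control 3 set that sign, since the other controls were level with gain or above it, and without control 3 the difference was -0.15 in place of 0.11 ± 0.23 (SE, n = 3 per group, limma adjusted p = 0.821). Lip4 lay at 6.61, 6.67 and 6.17 in gain larvae, against 6.98, 7.59 and 6.61 in control larvae, with overlap at control 3. Its difference of -0.58 ± 0.27 did not pass (adjusted p = 0.283).

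Of the 17 tested acid and neutral lipases, the 2 that passed are both neutral lipases. CG5966, which is a pancreatic lipase-like gene, lay at 3.48, 3.72 and 3.71 in gain larvae, against 5.11, 5.32 and 5.02 in control larvae. Every gain array was below the level of 4, so the gene entered the test through the controls alone and gain has only an upper bound. Set against that bound it was at least 2.22-fold lower in gain. The measured difference was -1.51 ± 0.13 (SE, n = 3 per group, limma adjusted p = 0.0045), with no filter the adjusted p was 0.0177, and with 16 added to each intensity before the logarithm the difference was -0.86 (adjusted p = 0.0103).

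CG5162 was well above that level in both groups. Its values were 8.02, 7.88 and 8.24 in gain larvae, against 9.60, 9.48 and 9.37 in control larvae. The nearest arrays of the groups, gain 3 and control 3, were still 1.14 apart, against an SD of 0.18 in gain and 0.11 in control. It was 2.71-fold lower in gain (difference -1.44 ± 0.13, SE, n = 3 per group, limma adjusted p = 0.00623), and 1.56% of all tests had a difference further below 0. CG5162 passed in all 19 alternative settings, each single array left out among them. CG5966 passed in the 18 in which it was tested and was not tested with a floor of 6, and wherever a filter was kept it entered through the controls, so that count adds no support.

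**Figure D2:**
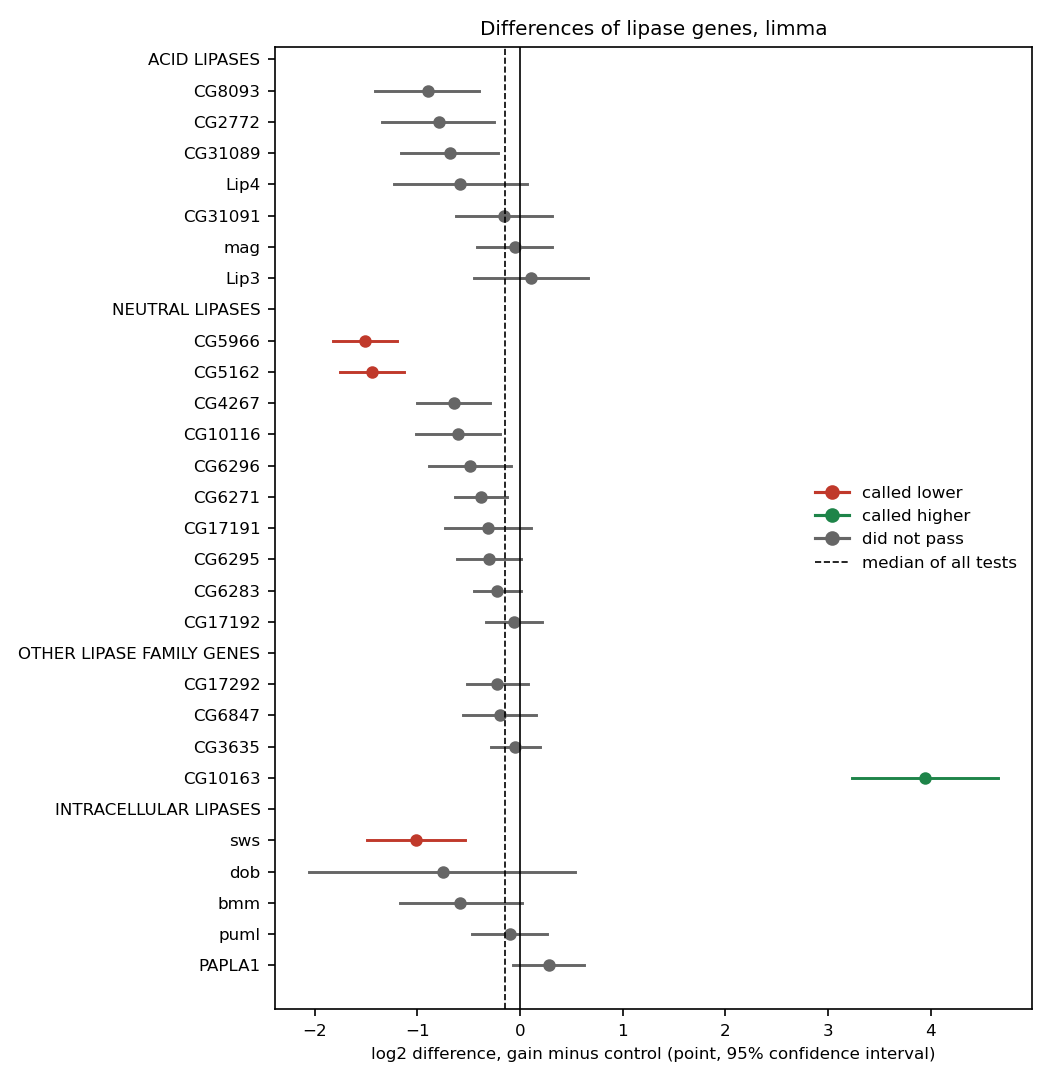
Log2 difference, gain minus control, of each tested lipase gene with its 95% confidence interval from limma, ordered within 4 gene lists. CG5162 at -1.44 and sws at -1.01 were called lower, as was CG5966, drawn at its measured -1.51 although its gain arrays allow only a bound of at least 2.22-fold. CG10163 at 3.94 was called higher, and the interval of mag spans 0.

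CG4267 and CG10116, also neutral lipases, had smaller differences with groups that did not overlap. CG4267 lay at 9.64, 9.21 and 9.63 in gain larvae, against 10.21, 10.18 and 10.03 in control larvae. Gain 2 was the lowest array, and the difference was -0.64 ± 0.15 (SE, n = 3 per group, limma adjusted p = 0.0722). The call of CG4267 depended on the scaling, since it passed with quantile normalization (-0.44, adjusted p = 0.0469) and with median difference centring (-0.50, adjusted p = 0.0403), and not with median centring (-0.39, adjusted p = 0.0613). A further probe set of CG4267 stayed at 2.36 to 2.42 in gain and 2.32 to 2.36 in control larvae, below the level tested. CG10116 lay at 8.36, 8.03 and 8.30 in gain larvae, against 8.79, 9.12 and 8.57 in control larvae (difference -0.60 ± 0.17, adjusted p = 0.118).

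A further 7 neutral lipases, CG6296, CG6295, CG17192, CG17191, CG6283, CG6277 and CG6271, follow each other in the genome in this order with no other coding gene between them. Such neighbours arise by duplication, and signal from a near-identical neighbour cannot be separated from a gene's own. None of the 6 that were tested passed. Among the alternative settings CG6271 passed with an intensity trend (limma adjusted p = 0.0387) and with array weights (0.00966), whose estimation did not converge. CG6296 passed with array weights (0.00357) and without control 3 and gain 2 together (0.03). The other tested genes of the run passed in none. On the deposited scale all 6 had a negative difference, from -0.49 for CG6296 to -0.06 for CG17192, a sign that turned for CG17192 under all 3 other scalings and for CG6283 with median centring. CG6271 lay at 13.96, 13.90 and 13.84 in gain larvae, against 14.23, 14.21 and 14.40 in control larvae, and CG6283 at 14.37, 14.22 and 14.31 in gain larvae, against 14.51, 14.51 and 14.55 in control larvae. These 2 genes had tight groups that did not overlap and small differences, -0.38 ± 0.10 and -0.22 ± 0.10 (SE, n = 3 per group, limma adjusted p = 0.107 and 0.249). The probe set annotated to both CG6271 and CG6277 lay at 14.81, 14.90 and 14.87 in gain larvae, against 15.15, 15.13 and 15.34 in control larvae, a difference of -0.35 that did not pass (adjusted p = 0.133).

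The remaining genes of the run spread more. CG6295 lay at 14.20, 14.06 and 14.25 in gain larvae, against 14.33, 14.40 and 14.68 in control larvae (difference -0.30 ± 0.13, limma adjusted p = 0.247). CG17191 lay at 11.18, 10.85 and 11.21 in gain larvae, against 11.23, 11.24 and 11.70 in control larvae (difference -0.31 ± 0.17, adjusted p = 0.359), so its groups were apart by only 0.02. CG17192 was near the level tested, at 4.69, 4.76 and 4.74 in gain larvae, against 4.62, 4.84 and 4.91 in control larvae (difference -0.06 ± 0.11, adjusted p = 0.797), and its groups overlapped. Control 3 was the highest control for CG6295, CG17192, CG17191, CG6283 and CG6271. CG6296, at 1 end of the run, was the exception. It lay at 8.63, 8.41 and 8.68 in gain larvae, against 9.26, 9.18 and 8.74 in control larvae (difference -0.49 ± 0.17, adjusted p = 0.172), and control 3 was there the lowest control, close to gain.

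**Figure D3:**
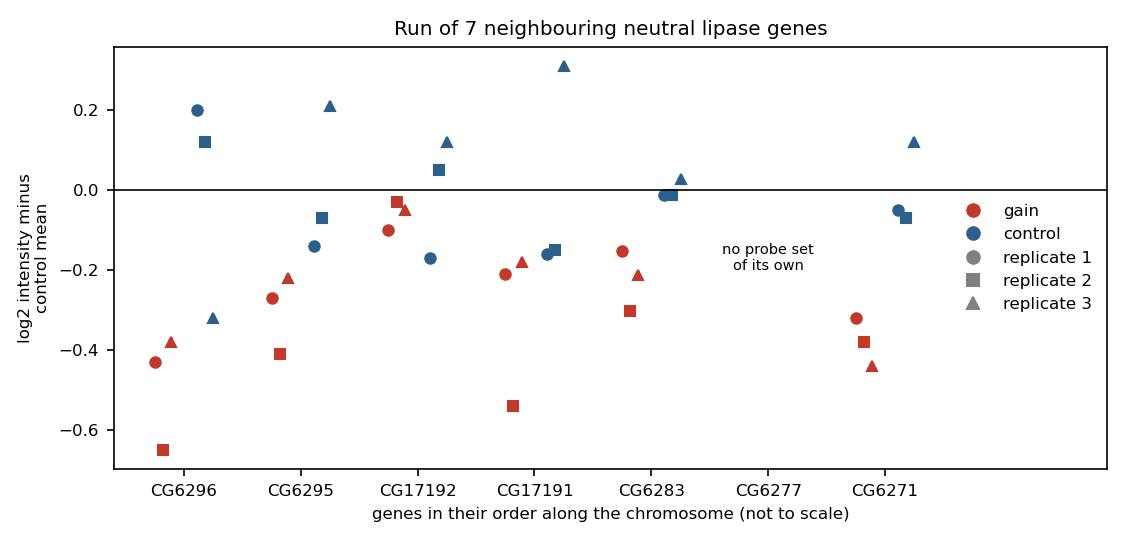
Log2 intensity on each array minus the mean of the 3 controls, for the run of 7 neighbouring neutral lipase genes in their order along the chromosome (not to scale), gain left of control, on the deposited scale. Gain arrays lie below the controls in the 6 measured genes except CG17192, and control 3 is the highest control in all but CG6296. On this scale 25.2% of all tests had all gain arrays below all controls. None of the 6 genes was apart in this way with either centring, and only CG6271, CG6283 and CG6295 were with quantile normalization.

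Over the 17 tested lipases, control 3 was the lowest control in 9, among them Lip3, Lip4, CG8093, CG2772, CG5162 and CG5966, and the highest in 6, which were mag and 5 of the neighbouring neutral lipases. In the tested lipases the median of control 3 minus the mean of the other controls was -0.16, against 0.02 over all tests. The part of this array in the differences was not tested beyond leaving it out. Without control 3 the tested lipases had a median difference of -0.65, against -0.13 over all tests. There 4 of the 17 passed as lower, CG8093 and CG2772 with CG5966 and CG5162, against 373 of all 7974 tests (4.68%). CG5966 entered the test through its controls alone and adds no support to that count or that median.

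In 12 of the 17 tested lipases all gain arrays were below all control arrays, and in none were they all above. Over all tests 25.2% had gain below control in this way and 5.49% above. The count was 9 with quantile normalization, 6 with median difference centring and 5 with median centring, where 13.4%, 16.2% and 10.7% of all tests did so. The lipases apart under all 3 scalings and on the deposited scale were CG10116, CG31089, CG4267, CG5162 and CG5966. By limma, 9 of the 17 had an unadjusted p under 0.05 with gain lower, against 18.5% of all tests, and none with gain higher, against 2.62%. CG5966 is in each of these counts with gain lower and adds no support to them. All its gain arrays were below 4, so it entered the test through its controls alone.

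**Figure D4:**
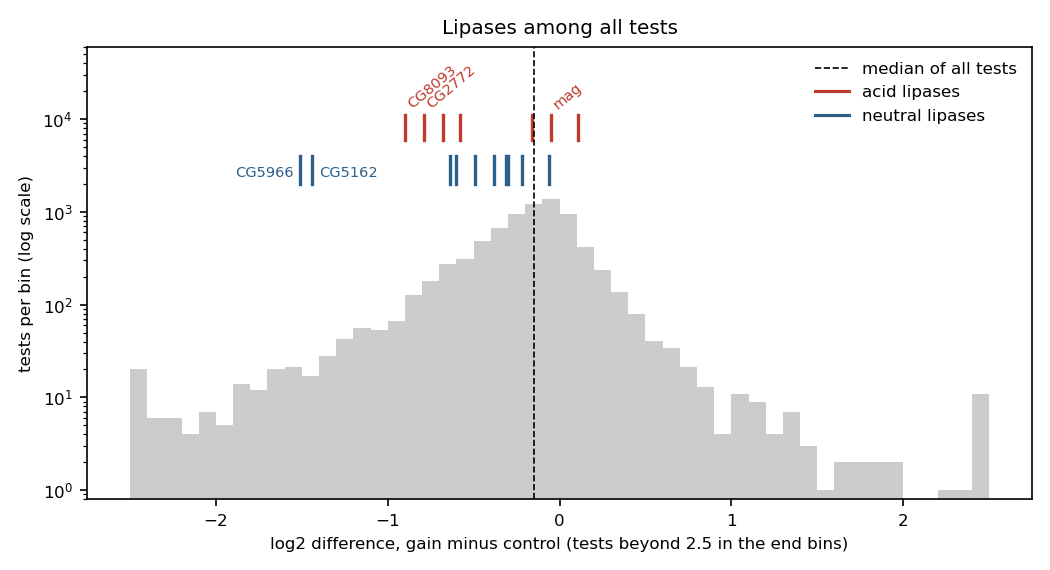
Histogram of the log2 difference, gain minus control, over all 7974 tests (log count axis), with ticks for the acid and neutral lipases above it. CG5966 and CG5162 lie far out on the negative side, and mag lies just right of the dashed median at -0.15.

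The scale of the whole arrays moved the lipases with it. The lipase median of -0.49 became -0.23 with median centring, -0.34 with median difference centring and -0.30 with quantile normalization, while the median of all tests became 0.11, -0.00 and 0.04. The distance between the medians was -0.34 on the deposited scale, which both centrings keep by construction because they shift all genes of an array alike, and -0.33 with quantile normalization. In the same order 12, 14 and 13 of the 17 had a negative difference, in place of 16. CG5966, which entered through its controls alone, is in these counts and medians and adds no support to them. With single arrays left out, the distance between the medians ran from -0.51 without control 3 to -0.21 without gain 3.

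**Figure D5:**
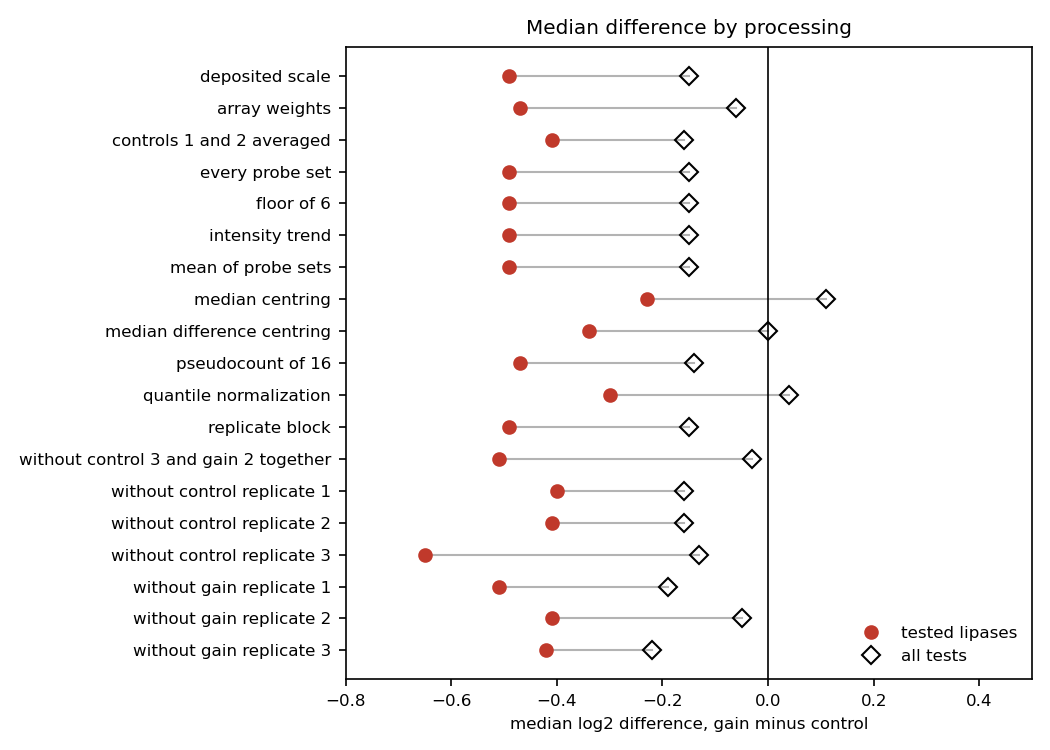
Median log2 difference, gain minus control, of the tested lipases (filled) and of all tests (open) under the deposited scale and each alternative that kept the filter. The lipase median lies left of that of all tests in each, between -0.65 and -0.23, and both centrings keep the distance between the medians by construction.

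The 15 lipases that were not tested lay between 1.96 and 2.86 on gain arrays and between 1.94 and 2.77 on control arrays, below the median over all probe sets of 3.04 to 3.25 on gain and 3.03 to 3.05 on control arrays. They comprise 12 acid lipases, Lip1, Lip2, CG7329, CG18302, CG18301, CG17097, CG11598, CG11600, CG11608, CG31872, CG18284 and CG31871, and 3 neutral lipases, CG13282, CG6431 and CG6472. Their transcripts were therefore not detectable in whole larvae at this sensitivity, which does not show that they are absent from every tissue. CG18301 and CG18302 directly follow Lip4 in the genome, and of these neighbours only Lip4 was tested. The runs CG11598, CG11600 and CG11608, and CG7329, CG31872, CG18284 and CG17097, each with no other coding gene between its members, held no tested gene. A probe set annotated to both CG18284 and CG31872 also stayed there, at 2.26 to 2.34 in gain and 2.24 to 2.26 in control larvae. All 15 had a slightly higher mean in gain, by 0.03 to 0.13, and gain 2 was the highest array in all 15. Of the 5989 probe sets of 1 gene that were below 4 on every array, 90.7% had a higher mean in gain and in 83.7% gain 2 was the highest array.

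Other genes of fat breakdown were taken from 2 lists. Of 19 further lipase family genes with a probe set, 4 were tested. None of the 4 was called lower and 1 was called higher, against 3.47% and 0.451% of all tests. CG10163 rose, at 8.67, 8.72 and 9.31 in gain larvae, against 4.41, 5.07 and 5.41 in control larvae. Its groups were 3.26 apart at their nearest arrays on the log2 scale, and the difference of 3.94 ± 0.30 (SE, n = 3 per group, limma adjusted p = 0.00337) had the opposite sign to 16 of the 17 tested acid and neutral lipases. Among the 3 that did not pass, CG17292 had the largest difference, at -0.22 (adjusted p = 0.367).

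Of the intracellular lipases 6 had a probe set and 5 were tested, of which 1 was called lower, against 3.47% of all tests. The gene sws, whose product is a phospholipase related to human neuropathy target esterase, lay at 8.95, 8.45 and 9.03 in gain larvae, against 10.07, 9.78 and 9.61 in control larvae. The groups did not overlap, and the difference was -1.01 ± 0.20 (SE, n = 3 per group, limma adjusted p = 0.0471). This call stood just under the threshold and ended without control 1 (adjusted p = 0.186), control 2 (0.152), gain 1 (0.108), gain 2 (0.0709) or gain 3 (0.0678), and held without control 3. The gene bmm, singled out after its values were seen because it encodes the main triacylglycerol lipase of fat droplets, had a difference of -0.58 ± 0.25 (adjusted p = 0.25), with 9.49, 8.79 and 8.69 in gain larvae, against 9.57, 9.84 and 9.30 in control larvae. Its paralogue dob had a difference of -0.75 ± 0.54 (adjusted p = 0.462), and control 3, at 7.21, was far above the other controls, both at 5.41.

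Because many of these lipases belong to the midgut or the fat body, markers of those tissues are given beside them. In bulk samples, fewer cells of a tissue and less RNA per cell cannot be told apart. Of 8 midgut markers 5 had a probe set of their own and were tested, mex1, Vha100-4, Mal-A1, Jon25Bi and Jon65Aiii. None passed on the deposited scale or under the 3 other scalings. All 5 had a negative difference on the deposited scale, from -0.71 for Vha100-4 (limma adjusted p = 0.0732) to -0.05 for Jon65Aiii, and with quantile normalization, against 1 with median centring and 3 with median difference centring. Their summed intensity was 67921 to 75872 in gain and 77160 to 81126 in control larvae. That linear sum rests mainly on the brightest, Jon65Aiii and Jon25Bi, whose groups overlapped (differences -0.05 and -0.14). Vha100-4 adds little to it. The median over the 5 was -0.22. The total intensity of all probe sets was lower in gain too, at 20577268 to 23374211, against 23602936 to 23835220 in control larvae. Of 6 fat body markers 4 were tested, apolpp, Lsp2, Fbp1 and FASN1, and none passed, with a summed intensity of 53784 to 62095 in gain and 64659 to 83593 in control larvae. None of these markers lay below 4 on any array.

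Lsp2, a storage protein gene that rises strongly during the third instar, lay at 12.16, 12.10 and 12.62 in gain larvae, against 13.16, 11.64 and 14.45 in control larvae. Control 3 was the highest and control 2 the lowest of all arrays, and the difference was -0.79 (limma adjusted p = 0.523). Fbp1, another fat body gene of the third instar, had a difference of the other sign, 0.45 (adjusted p = 0.668), at 4.94, 4.95 and 6.49 in gain larvae, against 4.59, 4.58 and 5.85 in control larvae. The brighter apolpp and FASN1 had differences of -0.08 and -0.40, and that of apolpp turned to 0.17 with median centring and 0.07 with median difference centring. Of 5 muscle markers 2 were tested and none passed, with a summed intensity of 24963 to 33612 in gain and 28783 to 31945 in control larvae. Of 5 Malpighian tubule markers 3 were tested and none passed, with 1153 to 1704 in gain and 1335 to 1657 in control larvae. None of the 5 epidermis markers had a probe set of its own. The part of tissue share or stage in the lipase differences was not tested.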

How the data were processed

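RNA of 3 gain and 3 control samples, grouped by their titles, was measured on 6 arrays. The authors deposited 1 linear intensity for every probe set on each array and, per the submitters' processing notes, used GCRMA, for which no version is given; a genome build is not given in the sources used here. Sequences of the lipases were not used here. Of 18952 probe sets, 13647 had 1 gene, 402 several, 4720 none and 183 were array controls; 13544 matched by gene ID a RefSeq table (assembly Release 6 plus ISO1 MT), used for symbols and gene order.

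Log2 values were taken with no pseudocount. Probe sets at 4 or more on at least 3 arrays were kept (8395), the brightest per gene tested, and the groups compared with limma 3.58.1 in R 4.3.3 without covariates, with Benjamini-Hochberg adjustment over all 7974 tests and calls under 0.05. All adjusted p-values are from limma. The members and lists were chosen with earlier results of these data known. The text names all 33 lipases, Hr96, and of the 2 further lists each gene that passed and the 2 largest differences. Marker levels are sums of linear intensities. Python 3.11.15 with pandas 2.3.3, NumPy 2.4.6 and Matplotlib 3.10.9 made tables and figures. The procedure was tested on simulated data with independent noise in each gene. It called 10 of 50 changes of 0.5 on the log2 scale and 43 of 50 changes of 1, with 7 false calls. Changes of 0.5 were thus mostly missed there. The number of arrays limits the precision.

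Alternatives were 3 other scalings (quantile normalization, median centring, and median difference centring, in which the median deviation of an array from the mean array is subtracted), no filter, a floor of 6, probe sets averaged per gene, probe sets tested singly, a pseudocount of 16, an intensity trend, array weights, the replicate number as a block, each array left out, control 3 and gain 2 left out together, and controls 1 and 2 averaged.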

Additional observations from a re-analysis of the deposited data

How the results depend on the processing

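CG5162 and CG10163 were called in all 19 alternatives, and CG5966, tested in 18, entered through the controls alone wherever a filter was kept. The number of lipases lower is given here with the share of all tests lower in the same setting. With array weights it was 9 (24.2%). Their estimation stopped before it converged and gave control 1 a weight of 7.44 and gain 2 one of 0.137. The number was 1 with a floor of 6 (4.18%), where CG5966 is not tested, and 5 without control 3 and gain 2 together (7.91%). It was 3 with an intensity trend (3.93%), quantile normalization (3.54%) or median difference centring (4.38%). With single arrays left out it was 2 to 4 (0.339% to 4.68%). The median of the tested lipases was -0.23 with median centring, -0.34 with median difference centring, -0.30 with quantile normalization and -0.65 to -0.40 with single arrays left out; with no filter, where 15 background genes enter, it was -0.01. Lipases with all gain arrays below all controls numbered 5 with median centring and 6 with median difference centring, and with no filter 12 of 32 had all gain arrays above, against 30.1% of all tests. The sws call was lost (0 intracellular lipases lower) with no filter, with controls 1 and 2 averaged and with the replicate number as a block (adjusted p = 0.059). With single arrays left out 0 to 1 were lower. Array weights gave 1 higher, PAPLA1, named after its values were seen, where 8.0% of all tests were higher. Over all tests, lower and higher calls were 1928 and 638 with array weights, 85 and 17 with no filter, 40 and 13 with controls 1 and 2 averaged, 631 and 129 without control 3 and gain 2, and 27 to 373 and 12 to 51 with single arrays left out; higher calls were 204 with median centring, 129 with median difference centring and 171 with quantile normalization. Where no value above shows it, the cause was not tested.

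Among the tested lipases, Hr96, CG10163, CG17292, sws, dob and bmm, signs turned in these, none of which passed: mag (0.20, 0.09 and 0.02 with median centring, median difference centring and quantile normalization, 0.08 without control 3 and gain 2, and -0.19 to 0.08 with single arrays left out), CG17192 (0.19, 0.09 and 0.18 in the same 3 settings, 0.03 with array weights, and -0.14 to 0.00 with single arrays left out), CG31091 (0.10 with median centring, 0.08 with quantile normalization, 0.02 without control 3 and gain 2, and -0.31 to 0.01 with single arrays left out), Lip3 (-0.26 with array weights, -0.17 without control 3 and gain 2, and -0.15 to 0.28 with single arrays left out), CG6283 and CG17292 (0.03 each with median centring) and dob (0.10 without control 3 and gain 2). Same-numbered gain and control samples had deviations that correlated at 0.21, 0.03 and 0.37, against -0.36 to 0.34 for the other pairs. Whether same-numbered samples share more than a number was not tested. With the replicate block 2 lipases were still lower, against 2.72% of all tests.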
